A study of Mus musculus with 15 samples.

Results

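The kidney mRNA of the 2 alpha globin genes (Hba-a1, Hba-a2), the 2 adult beta globin genes (Hbb-bs, Hbb-bt) and Alas2 was examined across the groups of an angiotensin II (Ang II) infusion study. These 5 genes were chosen because, in these same samples, globin levels had been seen to lie higher in both Ang II groups than in the Control group and not to fall back when QDG was given, so neither part of that pattern is a finding here. They are 5 of the 13929 genes with summed values. Their levels are therefore given as a description, with no test between groups. All mice were male wild type (WT) C57BL/6 mice, 8 weeks old when purchased. There were 15 of them, 5 per group. Control mice received saline for 28 days from a pump under the skin. Ang II mice received Angiotensin-II at 500 ng/kg/min by the same route for the same time. Ang II + QDG mice received the same infusion and, by daily gavage, Qingda granule (QDG, a Chinese herbal formula) at 1.145 g/kg/day, while the other groups were given water by gavage. RNA was taken from kidney tissue and depleted of ribosomal RNA before sequencing. Ang II raises blood pressure and injures the kidney, and the study asked what QDG changes in this model.

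Hemoglobin is a tetramer of alpha and beta globin chains, each holding a heme group that binds oxygen. The genes are transcribed at very high levels in red cell precursors of bone marrow and spleen, and young red cells (reticulocytes) in blood still carry globin mRNA after losing their nucleus. Alas2 encodes the erythroid form of 5-aminolevulinate synthase, the first enzyme of heme synthesis, whereas other tissues use the form encoded by Alas1. The adult kidney is not a site of red cell formation, but it makes the hormone erythropoietin, which drives that process, and globin mRNA has been described at low level in some of its own cells.

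The alpha genes lie side by side on chromosome 11 (mm10; Hba-a1 at 32283511-32284465 and Hba-a2 at 32296489-32297298, plus strand), with 12023 bases between them. The beta genes lie on chromosome 7 (Hbb-bt at 103812524-103813996 and Hbb-bs at 103826534-103827928, minus strand), 12537 bases apart. Alas2 is on chromosome X at 150547375-150570638, plus strand. Each globin transcript has 3 exons and the main Alas2 transcript (Alas2-201) has 11. Within each pair the genes are nearly the same sequence, which sets how well the values of single genes can be read. The coding sequences of Hba-a1 and Hba-a2 (429 bases each) differed at 1 base, and those of Hbb-bs and Hbb-bt (444 bases each) also at 1 base. The 120 coding bases around each difference are shown to make this visible, from coding base 271 to 390 for the alpha genes and 301 to 420 for the beta genes, with the differing base in capitals (GENCODE M21 transcripts, 5′ to 3′).
Hba-a1: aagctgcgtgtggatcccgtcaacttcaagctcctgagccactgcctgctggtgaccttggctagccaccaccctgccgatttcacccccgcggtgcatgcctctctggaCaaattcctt
Hba-a2: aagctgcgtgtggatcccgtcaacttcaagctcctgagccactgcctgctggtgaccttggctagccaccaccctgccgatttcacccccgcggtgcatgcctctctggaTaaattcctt
Hbb-bs: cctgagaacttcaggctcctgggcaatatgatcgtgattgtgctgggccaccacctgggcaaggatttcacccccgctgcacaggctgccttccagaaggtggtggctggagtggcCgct
Hbb-bt: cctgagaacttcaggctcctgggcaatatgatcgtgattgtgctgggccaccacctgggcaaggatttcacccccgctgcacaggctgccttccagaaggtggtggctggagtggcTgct

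Over the whole transcripts, 67.5% of the 50-base windows of Hba-a1 occurred letter for letter in Hba-a2, and 65.8% of those of Hbb-bs in Hbb-bt. Between an alpha and a beta gene no 50-base window was shared. Reads from such windows cannot be given to a single gene of a pair by sequence, so the split within a pair depends on the counting method and is uncertain. A pair's summed FPKM also moves somewhat with the split, because the transcripts of a pair differ in length, whereas its summed fragments do not. Whether reads with several matches were kept is not given in the sources used here. Sums of each pair are therefore given beside the single genes, with fragments where the split matters.

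The promoters of the members are shown next, so that the upstream sequence of these erythroid genes can be compared. Upstream bases are printed for 1 alpha gene, 1 beta gene and Alas2 (RefSeq gene starts, GRCm38.p6, 5′ to 3′ on the gene's strand), up to the first base of the transcripts listed in the deposited data. Capitals mark 4 short motifs found on either strand: AGATAA (bound by GATA factors), CACCC (bound by Krüppel-like factors), CCAAT and TATAA.
Hba-a2, chr11:32296242-32296488: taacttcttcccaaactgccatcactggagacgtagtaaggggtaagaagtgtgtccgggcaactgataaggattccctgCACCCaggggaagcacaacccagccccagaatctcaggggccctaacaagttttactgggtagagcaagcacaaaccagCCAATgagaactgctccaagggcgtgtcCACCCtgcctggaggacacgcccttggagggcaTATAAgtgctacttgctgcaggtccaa
Hbb-bs, chr7:103827929-103828178: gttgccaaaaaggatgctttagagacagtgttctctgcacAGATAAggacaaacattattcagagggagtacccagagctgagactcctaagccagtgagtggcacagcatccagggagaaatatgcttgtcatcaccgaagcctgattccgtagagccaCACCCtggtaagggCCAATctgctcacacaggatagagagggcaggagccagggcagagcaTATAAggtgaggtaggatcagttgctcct
Alas2, chrX:150547167-150547374: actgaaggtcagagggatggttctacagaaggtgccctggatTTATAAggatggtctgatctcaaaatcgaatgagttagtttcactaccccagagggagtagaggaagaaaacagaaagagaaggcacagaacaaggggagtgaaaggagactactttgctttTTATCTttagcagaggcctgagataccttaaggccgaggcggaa

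Within the 250 bases before the RefSeq start, CACCC and TATAA were found in all 5 members, CCAAT in the 4 globins and AGATAA in Hbb-bs and Alas2. In Hbb-bs the matches stood at -210 (AGATAA), -90 (CACCC), -76 (CCAAT) and -29 (TATAA) relative to the start. In Alas2 the AGATAA match lay at -86 to -81 on the opposite strand, TATAA was read on both strands from the same 6 letters at -208, and its 3 CACCC matches fell in the 42 bases not printed. The same motifs are common in general: among 32817 promoter windows of this length, 52.0% held CACCC, 33.8% CCAAT, 22.8% TATAA and 9.99% AGATAA. The alpha promoters were 97.6% identical to each other and the beta promoters 69.3%, whereas any other pair of members lay between 44.5% and 49.4%.

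Levels are in FPKM (fragments scaled to transcript length and to the total of the mouse), summed over the transcripts of a gene. The smallest steps in the values implied 68922800 to 81329500 fragments per mouse, with the Ang II + QDG libraries the shallowest by group median. The 15 kidney markers set for this tissue were all present, with Slc34a1, the proximal tubule phosphate transporter, at a mean of 2018 FPKM in Control kidneys, and this fits the labelled tissue. The 4 globins together made up 0.101% to 0.527% of the FPKM of transcripts listed for all mice. That corresponds to 28652 to 124480 fragments per mouse, and Alas2 to 604 to 2271, so counting error is small beside the differences between mice.

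**Figure D1:**
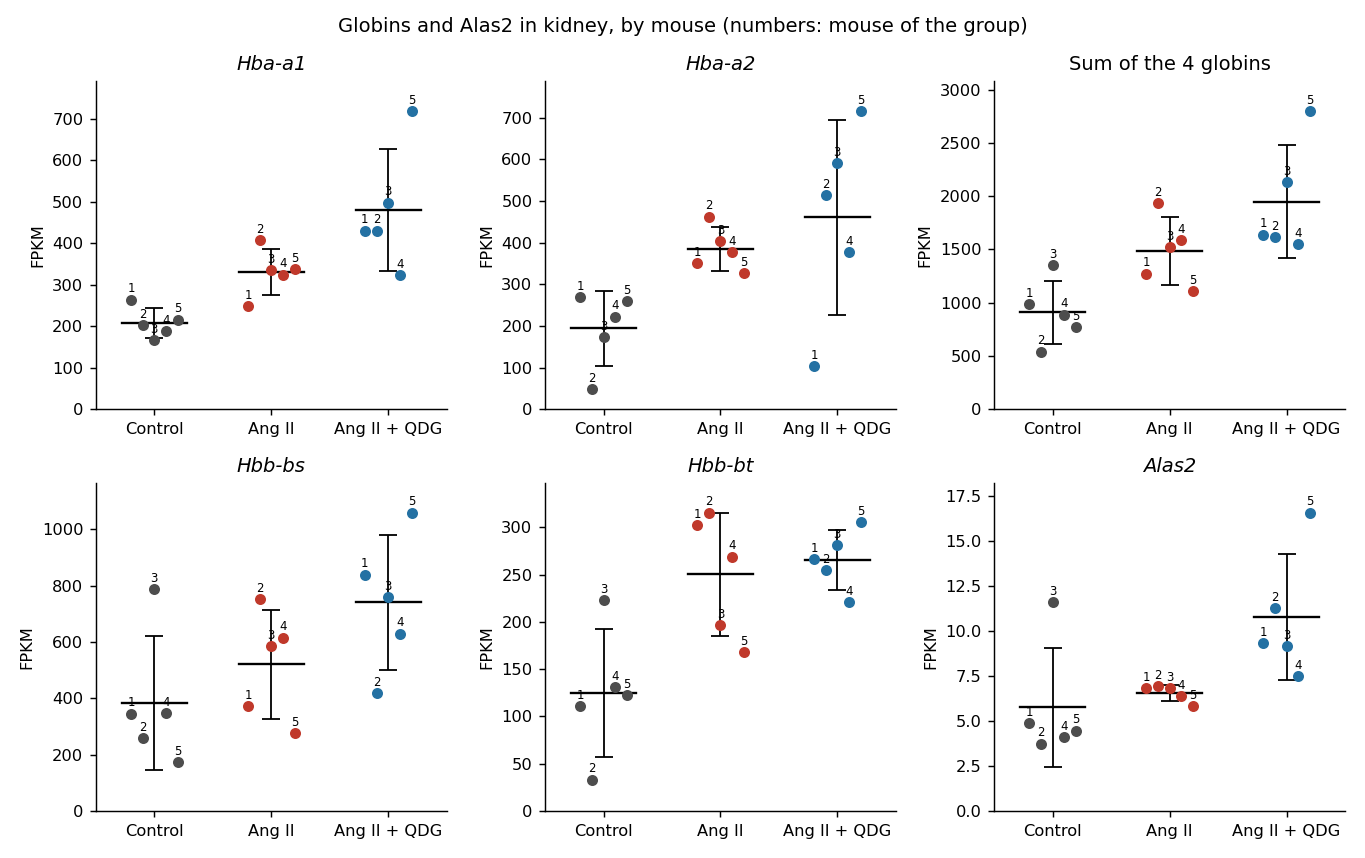
FPKM of the 4 globin genes, of their sum and of Alas2 in each mouse (points, numbered by mouse of the group), with the group mean (line) and SD (bar), n = 5 per group. For the globin sum the Ang II mice lie between 1109 and 1936 and the Control mice between 541 and 1350; Control mouse 3 stands high for Hbb-bs, Hbb-bt and Alas2 and not for the alpha genes.

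Taking the globins as a whole, mean levels were lowest in Control, higher in Ang II and highest in Ang II + QDG mice. The summed globin level in Control mice was 990, 541, 1350, 887 and 773 FPKM, mean 908 ± 298 (SD, n = 5). In Ang II mice it was 1274, 1936, 1519, 1587 and 1109 FPKM, mean 1485 ± 316 (SD, n = 5). In Ang II + QDG mice it was 1639, 1618, 2130, 1550 and 2801 FPKM, mean 1948 ± 530 (SD, n = 5). Every Ang II + QDG mouse lay above every Control mouse, while 3 of 5 Ang II mice did, because Control mouse 3 overlapped with the Ang II group. On the log2(FPKM + 1) scale the sum differed by 0.75 ± 0.26 (SE) for Ang II vs. Control, by 0.38 ± 0.21 for Ang II + QDG vs. Ang II and 1.12 ± 0.27 for Ang II + QDG vs. Control. The Ang II and the Ang II + QDG groups overlapped, with 2 of 5 Ang II + QDG mice above every Ang II mouse. In these bulk samples, more cells carrying globin mRNA and more globin mRNA per cell cannot be told apart. The comparisons share mice, so their values are not independent of each other. Mitochondrial transcripts, which weigh on a unit scaled to the total, took 18.5% to 20.7% of this FPKM in Control, 15.4% to 16.0% in Ang II and 16.9% to 19.8% in Ang II + QDG, with no overlap between Control and Ang II. Scaled without them, the globin sum differed by 0.73, 0.40 and 1.12 on the log2 scale in the comparisons as ordered above.

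Of the alpha genes, Hba-a1 was at 264, 202, 167, 187 and 216 FPKM in Control, 249, 407, 335, 324 and 337 in Ang II and 430, 430, 498, 323 and 719 in Ang II + QDG. All Ang II + QDG mice were above all Control mice, and 4 of 5 Ang II mice were. The group means were 207 ± 36.5, 330 ± 56.0 and 480 ± 148 FPKM (SD, n = 5 each), so the ratio of means was 1.59 for Ang II vs. Control and 2.32 for Ang II + QDG vs. Control.

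Hba-a2 was at 269, 47.4, 173, 223 and 261 FPKM in Control, 350, 463, 403, 378 and 327 in Ang II and 104, 515, 592, 377 and 717 in Ang II + QDG. Here all Ang II mice were above all Control mice, the lowest at 327 against a highest of 269 FPKM. Ang II + QDG mouse 1, at 104 FPKM, lay within the Control range although its Hba-a1 level of 430 was among the higher ones. The log2 difference was 1.19 ± 0.47 (SE) for Ang II vs. Control, and 0.74 without Control mouse 2. For Ang II + QDG vs. Ang II it was 0.02 ± 0.50, and 0.49 without Ang II + QDG mouse 1.

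The ratio of Hba-a2 to Hba-a1 stood apart in the same 2 mice. It was 0.235 in Control mouse 2 and 0.240 in Ang II + QDG mouse 1, against 0.971 to 1.41 in the other 13 mice. These mice belong to different groups, and their split is uncertain for the reason given with the coding sequences. The sum of the alpha genes was 533, 250, 340, 410 and 477 FPKM in Control, 599, 870, 738, 702 and 664 in Ang II and 534, 945, 1089, 699 and 1436 in Ang II + QDG. Summed in this way, all mice of both Ang II groups were above all Control mice, by 599 to 533 FPKM at the closest for the Ang II group and by 534 to 533 for the Ang II + QDG group. The last margin is smaller than what a different split in Ang II + QDG mouse 1 could change. In alpha fragments per 1000000 fragments of the mouse, which do not depend on the split between the genes, that mouse had 357 and Ang II mouse 1 had 367, the lowest of their groups, against 330 in Control mouse 1, the highest of its group.

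The beta genes varied more within groups. Hbb-bs, the more abundant of the pair, was at 346, 258, 787, 346 and 174 FPKM in Control, 373, 751, 584, 616 and 277 in Ang II and 839, 418, 759, 630 and 1059 in Ang II + QDG. No Ang II mouse was above the highest Control mouse, and 2 of 5 Ang II + QDG mice were. The log2 difference for Ang II vs. Control was 0.54 ± 0.44 (SE), and 0.85 without Control mouse 3.

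Hbb-bt was at 111, 33.1, 223, 131 and 123 FPKM in Control, 302, 316, 197, 269 and 168 in Ang II and 266, 255, 281, 221 and 306 in Ang II + QDG. Control mouse 3 was the only Control mouse within the range of the Ang II groups. Its group means were 124 ± 67.7, 250 ± 65.0 and 266 ± 31.6 FPKM (SD, n = 5 each), and the groups Ang II and Ang II + QDG could not be separated by their spread. The sum of the beta genes was 506 ± 295, 770 ± 232 and 1007 ± 262 FPKM (SD, n = 5 each).

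Alas2, the enzyme that starts heme synthesis in red cell precursors, had the same order of group means as the globins, at 5.76 ± 3.30, 6.56 ± 0.463 and 10.8 ± 3.51 FPKM (SD, n = 5 each). It was at 4.88, 3.74, 11.6, 4.11 and 4.46 FPKM in Control, 6.82, 6.94, 6.84, 6.37 and 5.83 in Ang II and 9.30, 11.3, 9.17, 7.49 and 16.6 in Ang II + QDG. Every Ang II + QDG mouse was above every Ang II mouse, which none of the globins showed. Ang II mice were above 4 of 5 Control mice, and Control mouse 3 was above all of them. The log2 difference was 0.26 ± 0.26 (SE) for Ang II vs. Control, or 0.51 without Control mouse 3, and 0.59 ± 0.18 for Ang II + QDG vs. Ang II. A second Alas2 transcript, Alas2-202, took 0% to 55.2% of the gene's FPKM, with group means of 26.1%, 34.9% and 37.4% and ranges that overlapped in all pairs of groups, so the sum over both is used.

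Counted over the 5 members, each comparison had a higher mean log2 level in its first-named group for all 5, and the groups did not overlap for 1 member in each (Hba-a2, Alas2 and Hba-a1 in the order given above). Across the 12364 genes tested, the groups did not overlap, with the first-named group higher, for 6.49%, 1.55% and 2.78% in these comparisons. The members were chosen on these contrasts, so nothing is read from their counts. The median log2 difference of the members was 0.67, 0.50 and 1.17 in the same order, and that of all genes tested 0.08, -0.02 and 0.06.

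**Figure D2:**
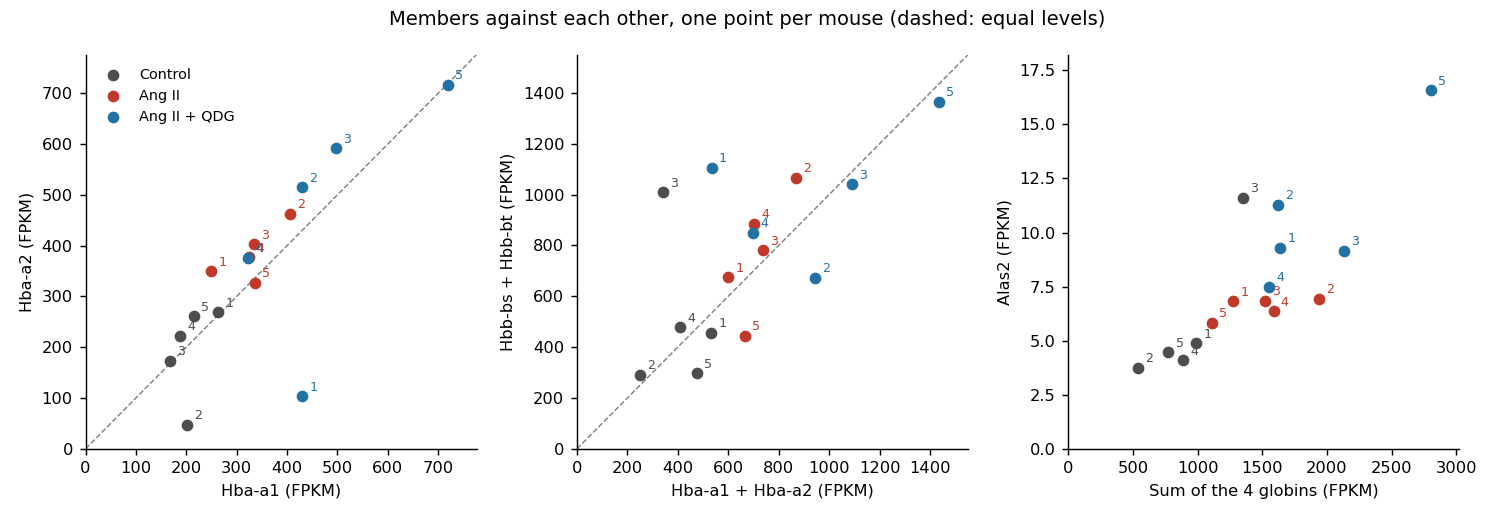
Each mouse as 1 point: Hba-a2 against Hba-a1, the beta sum against the alpha sum, and Alas2 against the sum of the 4 globins, all in FPKM, with equal levels as a dashed line in the first 2 panels. Control mouse 2 and Ang II + QDG mouse 1 lie far below the line for Hba-a2 (ratios 0.235 and 0.240), Control mouse 3 lies far above it for the beta sum (1010 against 340 FPKM), and Ang II + QDG mouse 5 is highest in all 3 panels.

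Mouse by mouse, the members did not move as 1 block. The ratio of the alpha sum to the beta sum averaged 0.965 ± 0.466, 0.987 ± 0.289 and 0.962 ± 0.339 (SD, n = 5 each) across the 3 groups in the same order, so the group means of this ratio lay close together. Within groups it ran from 0.337 in Control mouse 3 to 1.61 in Control mouse 5. Over the 15 mice the alpha and beta sums had a Pearson r of 0.63 (Spearman 0.57) on the log2 scale, and r fell to 0.19 once the group means were subtracted and to 0.33 without the 2 mice farthest from the median alpha sum. Alas2 followed the beta sum more closely, with r = 0.82 (Spearman 0.80), 0.72 with group means subtracted and 0.74 without the 2 mice farthest in Alas2. With the alpha sum, Alas2 had r = 0.63 and, with group means subtracted, 0.30. These values describe 15 mice that share their groups, and they carry no test.

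Alas2 relative to the globins was lower in the Ang II group than in the others, at 4.54 ± 0.769 FPKM per 1000 FPKM of globin (SD, n = 5), against 6.17 ± 1.62 in Control mice and 5.54 ± 1.03 in those given QDG. The ranges overlapped in all pairs of groups. The globin sum also went with depth: r with the implied fragment total was -0.67 (Spearman -0.71; -0.36 with group means subtracted). The Ang II + QDG libraries were the shallowest, at a median of 70028700 fragments against 79345300 in Control and 79124100 in Ang II. FPKM is scaled to that total, and its part in the result was not tested. Transcripts with a retained intron made up 0.254% to 4.83% of the alpha FPKM in any mouse.

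Among all genes, the globins rank high in this kidney RNA. By mean FPKM of the group, Hbb-bs was 115th of 13929 genes in Control, 84th in Ang II and 52nd in Ang II + QDG, and Hba-a1 went from 261st to 162nd to 84th. Alas2 lay much further down in each group, at 6638th, 6432nd and 4689th.

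Other genes of red cells were then examined, from lists drawn up for surface and membrane skeleton proteins, late erythroid proteins and erythroid transcription factors. Of these 60 genes, 34 were listed for all mice and 33 passed the filter on low values. The defining markers were largely outside the deposited lists, which hold transcripts with a mean of at least 0.5 FPKM in 1 of the groups compared. Rhag, Epb42, Ank1, Car1, and the factors Gata1, Klf1 and Tal1 were among the 23 not listed in any file. Slc4a1 (the band 3 anion exchanger), Sptb and Tmod1 were listed for the Ang II and Ang II + QDG mice and not for the Control mice. Slc4a1 was at 0.0353, 2.19, 0.0354, 0 and 0 FPKM in Ang II and 0, 2.502, 4.43, 0 and 0.0400 in Ang II + QDG, so 1 Ang II mouse and 2 Ang II + QDG mice carried nearly all of it. Sptb averaged 0.500 ± 0.160 and 0.657 ± 0.104 FPKM and Tmod1 0.386 ± 0.0893 and 0.646 ± 0.244 (SD, n = 5 each), with overlapping ranges, and these 3 genes are in none of the counts that follow. Any transcript listed only for the Ang II and Ang II + QDG mice had an Ang II mean of at most 0.49983 FPKM. It was listed through its Ang II + QDG mean, so the listing itself set which of these means was higher. Absence for the Control mice likewise gives no comparison of Ang II with Control. The embryonic and theta globins were not listed, and the only other globin that was, Cygb (cytoglobin, made by fibroblast-like cells), averaged 1.60 ± 0.364, 2.62 ± 0.732 and 3.15 ± 1.23 FPKM (SD, n = 5 each), with adjusted p = 0.165 (Ang II) and 0.157 (Ang II + QDG) against Control (limma).

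The 33 tested erythroid genes gave few calls. In Ang II vs. Control, 2 of 33 were higher and 1 was lower at an adjusted p under 0.05 (limma, Benjamini-Hochberg over all 12364 genes), against 4.95% higher and 0.995% lower over all genes tested. Their median log2 difference was 0.10, against 0.08 for all genes. At an unadjusted p below 0.05 the counts were 4 and 1 (all genes 17.9% and 4.82%). Between Ang II + QDG and Ang II, 1 was higher and 0 were lower (all genes 0.526% and 1.29%), or 4 and 3 at an unadjusted p below 0.05 (all genes 6% and 10.4%). In Ang II + QDG vs. Control, limma called 0 of 33 (all genes 0.0971% higher and 0.0324% lower), or 6 higher and 0 lower at an unadjusted p below 0.05 (all genes 10.7% and 3.72%). Their median log2 differences in these last comparisons were 0.10 and 0.17, against -0.02 and 0.06 for all genes. The summed level of the 34 erythroid genes listed for all mice ran from 1083 to 1217 FPKM in Control, 1033 to 1232 in Ang II and 1182 to 1346 in Ang II + QDG.

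**Figure D3:**
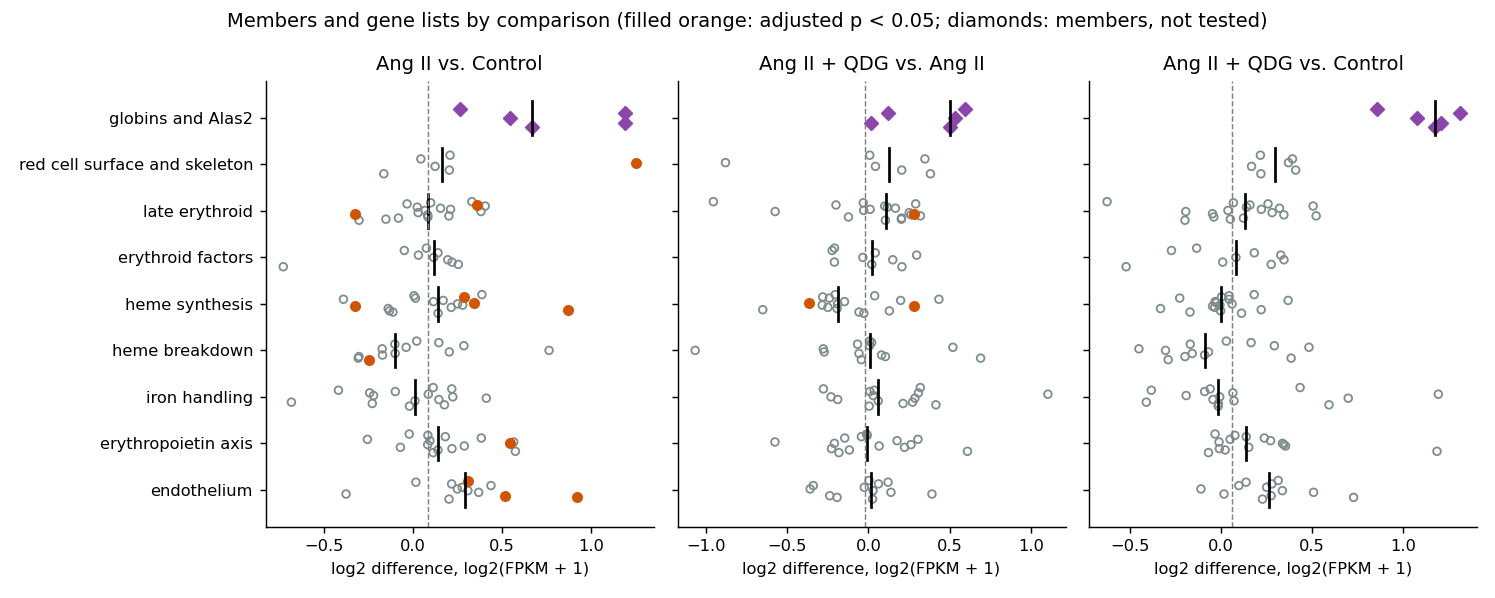
Difference in log2(FPKM + 1) for the 5 members (diamonds, not tested) and for each gene of 8 lists (circles; filled where adjusted p is under 0.05), in the 3 comparisons. Black lines are list medians and dashed lines the median of all genes tested. In Ang II + QDG vs. Control the members lie between 0.86 and 1.31, to the right of every list median. They were chosen on this contrast, so nothing is read from their place.

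The erythroid genes called were Epb41, Ubac1 and Fech. Epb41, the membrane skeleton protein 4.1, was at 7.56, 6.42, 15.6, 13.2 and 16.2 FPKM in Control and 22.3, 33.1, 37.2, 23.4 and 25.6 in Ang II, with no overlap. It rose by 1.25 ± 0.29 (SE) on the log2 scale (adjusted p = 0.0243, limma) and was at 15.5 ± 5.94 FPKM (SD, n = 5) in mice given QDG. The gene makes many transcripts in many tissues, and the call was lost when only the most abundant transcript was used (adjusted p = 0.59) or without any 1 of 3 mice. Ubac1, a subunit of a ubiquitin ligase, rose by 0.36 ± 0.08 (adjusted p = 0.0188, limma), a call lost after quantile normalization or median scaling, with the most abundant transcript (adjusted p = 0.146) and without Control mouse 1 (adjusted p = 0.0508).

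The erythroid genes with the highest levels are also made by kidney cells. Aqp1, the water channel of red cells and of the proximal tubule, averaged 396 ± 45.7, 358 ± 77.1 and 460 ± 49.8 FPKM, and Car2 (carbonic anhydrase 2) 235 ± 15.3, 250 ± 31.9 and 229 ± 18.9 FPKM (SD, n = 5 each). Prdx2, Cd24a, Slc2a1 and Cd59a were at group means of 89.8 to 94.0, 63.1 to 90.5, 13.0 to 15.2 and 7.51 to 10.4 FPKM. Of the factors, Nfe2l2, Foxo3 and Mafg were the most abundant, with group means of 34.2 to 38.9, 14.6 to 17.8 and 15.1 to 17.7 FPKM. That none of these 9 genes passed the test in any comparison follows from their choice among genes without a call. Their lowest adjusted p was 0.16 (limma, for Aqp1 when QDG was added).

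Of 17 heme synthesis genes, 3 were higher and 1 was lower in Ang II vs. Control (all genes 4.95% and 0.995%). Alas1, the housekeeping form of the enzyme that Alas2 encodes in erythroid cells, was at 57.4, 77.3, 87.2, 63.4 and 81.4 FPKM in Control and 90.6, 92.6, 191, 126 and 210 in Ang II, again with no overlap. It rose by 0.87 ± 0.24 (SE, adjusted p = 0.0478, limma), and averaged 86.5 ± 20.8 FPKM (SD, n = 5) when QDG was given. The call sits at the threshold and was lost when any 1 of 12 of the 15 mice was left out. It was also lost without the filter on low values and with the most abundant transcript. The same held after quantile normalization, median scaling or scaling without mitochondrial transcripts.

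Fech (ferrochelatase, which inserts iron into the ring in the last step) went the other way. It was at 63.3, 63.4, 68.4, 65.9 and 77.7 FPKM in Control, 54.1, 55.5, 52.1, 54.1 and 52.6 in Ang II and 65.0, 66.9, 63.0, 63.3 and 69.0 in Ang II + QDG. The Ang II mice were below all others. Fech fell by 0.33 on the log2 scale in Ang II vs. Control (SE 0.06, adjusted p = 0.00807, limma), and rose by 0.28 ± 0.06 when QDG was added (adjusted p = 0.0255, lost without any 1 of 4 mice). Glrx5, a mitochondrial iron-sulfur protein, rose by 0.34 ± 0.07 in Ang II vs. Control (adjusted p = 0.0164, limma) and fell by 0.37 with QDG (SE 0.07, adjusted p = 0.0248, limma). The first call was lost after quantile normalization or median scaling, and the second without any 1 of 6 mice. Tmem14c, which carries a heme precursor into the mitochondrion, rose by 0.28 ± 0.08 (adjusted p = 0.0478, limma, lost without any 1 of 12 mice), with -0.28 when QDG was added (adjusted p = 0.0809, limma). The call for Tmem14c was also lost without the filter, after quantile normalization or median scaling, and with the most abundant transcript. The list as a whole had a median log2 difference of 0.14 for Ang II against Control and of -0.19 between the treated and untreated Ang II groups, where 1 gene was higher and 1 lower (all genes 0.526% and 1.29%). Its most abundant genes without a call, Slc25a39, Alad and Clpx, had group means of 203 to 241, 51.7 to 56.8 and 42.2 to 53.5 FPKM.

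**Figure D4:**
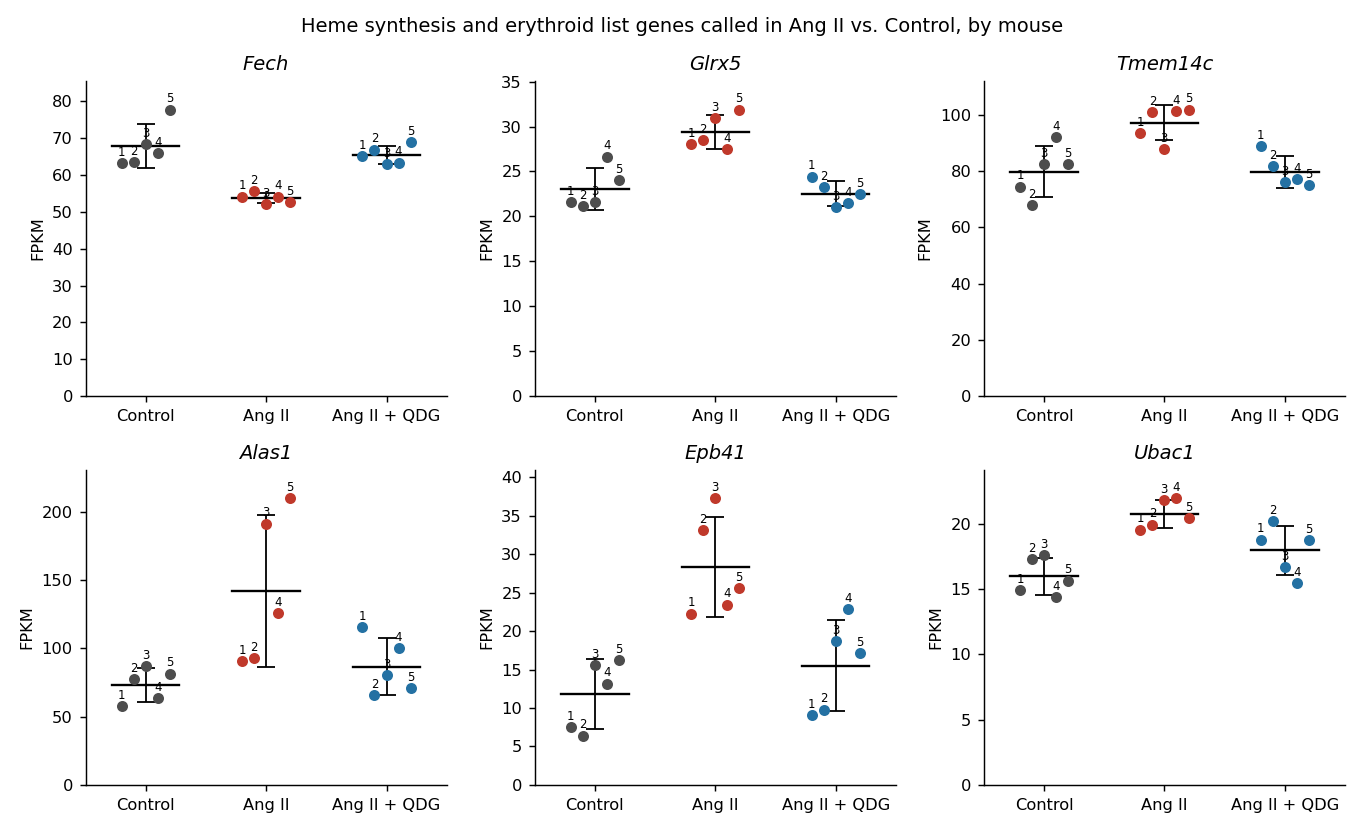
FPKM of 4 heme synthesis genes (Fech, Glrx5, Tmem14c, Alas1) and of Epb41 and Ubac1 in each mouse (points, numbered by mouse of the group), with group mean (line) and SD (bar), n = 5 per group. Fech is lower in every Ang II mouse (52.1 to 55.5) than in every Control or Ang II + QDG mouse (63.0 to 77.7).

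Genes that clear heme and store its iron were examined next. Of 13 heme breakdown genes 0 were higher in Ang II vs. Control (0 also at an unadjusted p below 0.05, limma; all genes 4.95% and 17.9%), and 1 fell, against 0.995% of all genes: Abcg2, an efflux pump that also exports porphyrins (by 0.25 on the log2 scale, SE 0.06, adjusted p = 0.0359, lost without any 1 of 9 mice). The ferritin chains Fth1 and Ftl1 had group means of 3649 to 4073 and 2132 to 2572 FPKM, and Lrp2 (megalin, the uptake receptor of the proximal tubule) 199 to 224. Hmox1 (heme oxygenase 1, induced by heme), picked out after its values were seen, was at 250 FPKM in Ang II mouse 3 and at 15.4 to 26.8 FPKM in the other 14 mice. Ang II mouse 3 was in the middle of its group for the globin sum (1519 FPKM). Of 15 iron handling genes 0 were called in any comparison (limma), with 0 higher and 1 lower at an unadjusted p below 0.05 between Ang II and Control (all genes 17.9% and 4.82%, and 4.95% and 0.995% at the adjusted threshold). The most abundant of them were Aco1 (118 to 119 FPKM), Tfrc, the transferrin receptor of iron-loading cells (25.4 to 30.7), and Fbxl5 (21.2 to 25.0), each given as group means.

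Of the erythropoietin axis, the hormone gene Epo was not listed and 15 of 16 genes were tested. Gata2, a GATA factor also found in endothelium, was the 1 gene called in Ang II vs. Control (all genes 4.95% higher) and rose by 0.55 ± 0.11 (SE, adjusted p = 0.0165, limma; adjusted p = 0.52 with the most abundant transcript). The hypoxia factor Epas1 averaged 28.4 ± 4.07, 34.7 ± 2.54 and 36.4 ± 3.95 FPKM (SD, n = 5 each; adjusted p = 0.10 in Ang II vs. Control), and the oxygen sensors Egln1 and Egln2 had group means of 23.6 to 26.1 and 23.4 to 27.3 FPKM. At an unadjusted p below 0.05, 5 of the 15 were higher in Ang II vs. Control (all genes 17.9%). No gene of the list was called in the other comparisons (limma), with 1 higher in Ang II + QDG vs. Ang II and 4 against Control at an unadjusted p below 0.05 (all genes 6% and 10.7%).

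Markers of other cells that blood or vessels could bring were examined beside the globins. Endothelial genes were higher in Ang II vs. Control for 3 of 12 (all genes 4.95%): Egfl7 by 0.92 ± 0.18, Ehd3 by 0.51 ± 0.12 and Tie1 by 0.31 ± 0.09 on the log2 scale (adjusted p = 0.0140, 0.0286 and 0.0472, limma). The call for Tie1 was lost without any 1 of 13 mice, that for Ehd3 without any 1 of 6, both also after quantile normalization or median scaling, and that for Egfl7 with the most abundant transcript. Their summed level ran from 165 to 245 FPKM in Control, 213 to 264 in Ang II and 208 to 258 in Ang II + QDG, with Plvap, Emcn and Kdr at means of 74.0, 23.9 and 13.4 FPKM in Control. Of 12 platelet genes, 8 were not listed. Pf4 and Ppbp (0.150 to 1.39 and 0.194 to 1.11 FPKM) were listed only for the Ang II and Ang II + QDG mice, again through their Ang II + QDG mean. Of the rest, 1 was tested. That gene, Itga2b (the integrin alpha IIb chain of platelets), averaged 2.05 ± 0.366, 2.94 ± 0.782 and 3.48 ± 0.741 FPKM (SD, n = 5 each). It was without a call in limma (adjusted p = 0.195 for Ang II and 0.138 for Ang II + QDG against Control). Every Ang II + QDG mouse was above every Control mouse, as for 2.78% of all genes tested. Its r with the globin sum was 0.62, and 0.12 with group means subtracted. Of 14 neutrophil and monocyte genes 6 were not listed, among them Elane and Mpo, and the sum of the 6 listed for all mice ran from 21.4 to 35.7, 15.6 to 33.5 and 22.3 to 143 FPKM. The highest of these was Ang II + QDG mouse 4, with S100a9 at 39.3 and Lyz2 at 58.0 FPKM, whose globin sum was the lowest of its group. Lcn2 averaged 2.52 to 4.91 FPKM over the groups. Of 12 lymphocyte genes, 8, Cd3e and Cd4 among them, were not listed, and Ighm, the antibody heavy chain, averaged 4.04, 3.52 and 1.87 FPKM. The part of blood and vessel cells in the globin levels was not tested.

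Of the nephron markers, the androgen-dependent proximal tubule gene Kap spanned 6639 ± 4519, 2677 ± 1136 and 6840 ± 2161 FPKM without a call, and Umod, of the thick ascending limb, 1023 ± 110, 924 ± 180 and 1177 ± 152 FPKM (SD, n = 5 each). In Ang II vs. Control, 612 of 12364 genes were higher and 123 lower, but this split depended on scaling: it was 228 and 268 after quantile normalization. The globin sum kept a log2 difference of 0.68 there.

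The genes whose levels followed the globin sum most closely over the 15 mice were not erythroid list genes. Xbp1, a transcription factor of secretory cells, had the highest Pearson r, 0.88, and Alas2 had 0.84. The 4 globins are parts of that sum, which raises their own r (0.73 to 0.88). It was at 21.3, 19.9, 23.1, 22.6 and 18.3 FPKM in Control, 26.8, 27.6, 25.9, 28.3 and 27.9 in Ang II and 24.5, 28.2, 31.7, 29.4 and 35.6 in Ang II + QDG. The next genes were Antxr1, Senp7, Mapre2, Icmt, Dynlt1c, Ric8a and Igfals, with r from 0.81 to 0.76, while the median over 12364 genes was 0.07 and the upper 1% began at 0.63. With group means subtracted, Hist1h2bk led (r = 0.83), followed by Mapre2, Rabggta, Senp7, Arf4, Gprc5c, Abi2 and Cyp2e1 (0.79 to 0.77). Mapre2 and Senp7 were thus in both sets. Among the erythroid list genes, Tmcc2 had r = 0.61. Over the 3 erythroid lists the median r was 0.07 for surface genes, 0.17 for late genes and 0.13 for factors. These correlations are a description over 15 mice that share their groups, and they carry no test.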

How the data were processed

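Values were analysed as deposited by the authors, with 1 file per mouse giving FPKM per transcript. The unit is not named in the files; per the labels the build is mm10 and limma was used, and the aligner and counter are not given in the sources used here. For 98.7% or more of values under 200 fragments, the value times transcript length was a whole multiple (tolerance 0.1) of 1 constant per mouse, as FPKM from whole fragments would be. The labels name ribosomal RNA depletion, and the study's methods also a poly(A) step, so the selection of RNA is not settled. Control files list 41477 transcripts and the others 42310. Of the 40054 shared, 28871 Ensembl transcripts matched a GENCODE M21 symbol and were summed to 13929 genes, and the 11141 assembled transcripts without gene names were left out, so globin reads given to those are not in the sums.

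The 12364 genes that reached 1 FPKM in 5 or more mice were tested on log2(FPKM + 1) with limma 3.58.1 (trend) in R 4.3.3, with 1 mean per group, all 15 mice and Benjamini-Hochberg adjustment. A fold change on this scale understates the change of low genes. The method was tested on simulated data. Nothing in the labels says how the mice were housed or processed in batches, and mice were numbered in accession order. The p-values measure the spread between mice. The members and gene lists were chosen with earlier results of these data known. Named were the 5 members, list genes that were called (at most 6 per list and comparison), the 3 next most abundant genes of each list, and the 8 genes most correlated with the globin sum over mice, before and after group means were subtracted. Alternatives covered the pseudocount, the filter, 3 scalings, the transcripts summed, the call rule of a fold of at least 2 with unadjusted p, and leaving out each mouse. A few list genes are not reported here. Sequences came from GENCODE M21 and RefSeq (all 5 members matched).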

Additional observations from a re-analysis of the deposited data

Results flagged for a closer look

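In 210 groups of 5 mice, over the members, their sums and ratios and the other genes named, 23 values stood apart from the rest of their group by more than 0.71 of the group's range, a gap that chance gives in about 5% of groups. Among the members, Control mouse 3 was high for Hbb-bs (786.9 FPKM, others 174 to 346), for the beta sum (1010 FPKM, others 291 to 477) and for Alas2 (11.61 FPKM, others 3.74 to 4.88). The ratio of Hba-a2 to Hba-a1 was low in Control mouse 2 (0.2346) and in Ang II + QDG mouse 1 (0.2405), and the ratio of alpha to beta globins was high in Ang II mouse 5 (1.493, others 0.793 to 0.944).

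Among the other genes, Ang II mouse 3 was high for Hmox1 (249.7 FPKM) and Nfe2l2 (45.9 FPKM), which encodes a known activator of Hmox1. Ang II + QDG mouse 4 was high for S100a9 (39.29 FPKM, others 0.785 to 1.23) and Lyz2 (57.97 FPKM). Gprc5c was high in Control mouse 3 (74.83 FPKM) and Ang II mouse 2 (54.7 FPKM), Abi2 in Ang II mouse 2 (2.882 FPKM) and Ang II + QDG mouse 5 (3.062 FPKM), and Igfals in Control mouse 3 (2.248 FPKM). Mafg was low in Control mouse 4 (4.701 FPKM) and Ang II mouse 5 (2.603 FPKM). The remaining values were Aqp1 in Ang II + QDG mouse 3 (549 FPKM), Hmox1 in Ang II + QDG mouse 2 (22.66 FPKM), Lcn2 in Control mouse 2 (5.122 FPKM), Mapre2 in Ang II mouse 2 (25.94 FPKM), Ric8a in Ang II mouse 1 (9.027 FPKM) and Slc2a1 in Control mouse 2 (17.29 FPKM).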

How the results depend on the processing

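The globins were chosen on the direction of their differences, so its persistence here is no support for it. The log2 difference of the globin sum kept its direction under every alternative for which it was taken. It was not taken for the filter or the call rule. Without 1 mouse it ranged from 0.575 to 0.9046 for Ang II vs. Control, 0.238 to 0.4808 for Ang II + QDG vs. Ang II and 0.9537 to 1.283 for Ang II + QDG vs. Control. The small differences of 2 members between Ang II + QDG and Ang II mice turned when 1 mouse was left out: Hba-a2 ranged from -0.2067 (without Ang II + QDG mouse 5) to 0.4883 (without Ang II + QDG mouse 1), and was also below 0 without Ang II mouse 1 or 5 or Ang II + QDG mouse 2 or 3. Hbb-bt ranged from -0.01269 (without Ang II mouse 5) to 0.2135.

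Genes called in Ang II vs. Control numbered 470 under median scaling (201 higher, 269 lower), 353 with the most abundant transcript, 130 under the fold rule and 337 to 798 without 1 mouse. For Ang II + QDG vs. Ang II they numbered 99 under the fold rule and 53 to 254 without 1 mouse, and the split was 97 and 97 under quantile normalization. In Ang II + QDG vs. Control they numbered 80 with all listed transcripts, 6 with the most abundant transcript, 89 under the fold rule and 0 to 110 without 1 mouse; the cause was not tested. Erythroid calls in Ang II vs. Control were 1 with the most abundant transcript or the fold rule and 1 to 3 without 1 mouse. Between Ang II + QDG and Ang II they were 0 under the fold rule and 0 to 2 without 1 mouse. Of the 13 gene calls named, Fech in Ang II vs. Control passed under every alternative but the fold rule, with adjusted p from 0.004178 to 0.02597. No paired analysis was made, because the groups were formed of separate mice, divided at random in the study.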
